A study of Mus musculus with 6 samples.

Results

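The mouse Rhox genes are a cluster of homeobox genes on the X chromosome. The members examined were the 9 genes Rhox1, Rhox2a, Rhox4b, Rhox4e, Rhox5, Rhox6, Rhox8, Rhox9 and Rhox10, found as all probes whose annotated symbol is one of these names. Of the 9 members, 6 had a named probe, with 7 probes between them out of 45281 probes on the array. Of these 6 genes, 4 passed the detection filter (Rhox5, Rhox6, Rhox9 and Rhox10) and 2 did not (Rhox1 and Rhox8). Probes with the symbols Rhox2a, Rhox4b and Rhox4e were not found in the annotation used, so these 3 members were not analysed here.

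RNA was profiled on 1-colour Illumina bead arrays from 3 samples labelled spermatogonial stem cells (SSC), of strain C57BL/6, and from 3 samples labelled embryonic stem cells (ESC), of the line R1/E. Spermatogonial stem cells are the self-renewing germ cells of the adult testis, and embryonic stem cells are pluripotent cells derived from the early embryo. The labels give no treatment, sex, age, sorting step or culture condition for either group, and the ESC samples come from a single line. Cell type and genetic background differ together between the groups and cannot be told apart. The replicates are numbered but not described as separate animals or cultures, so the p-values cover the spread among these arrays alone, and part of it may be technical.

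Rhox genes encode homeodomain transcription factors that are expressed mainly in reproductive tissues and in the placenta. In the mouse the cluster is usually divided by position into an alpha subcluster (Rhox1 to Rhox4), a beta subcluster (Rhox5 to Rhox9) and a gamma subcluster (Rhox10 to Rhox12), with Rhox13 at the far end. Rhox2, Rhox3 and Rhox4 exist as tandem copies. DNA methylation is a known means by which Rhox genes are kept silent in mouse cells that do not use them.

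The bases upstream of Rhox5, Rhox10 and Rhox13 are shown because these are the Rhox genes detected on all 6 arrays, and because DNA methylation acts at CpG dinucleotides. Each sequence holds the 250 bases before the gene's annotated start on the gene's own strand (RefSeq, build GRCm38.p6), with CpG dinucleotides in capitals.
Rhox5 (chrX:37754358-37754607, plus strand): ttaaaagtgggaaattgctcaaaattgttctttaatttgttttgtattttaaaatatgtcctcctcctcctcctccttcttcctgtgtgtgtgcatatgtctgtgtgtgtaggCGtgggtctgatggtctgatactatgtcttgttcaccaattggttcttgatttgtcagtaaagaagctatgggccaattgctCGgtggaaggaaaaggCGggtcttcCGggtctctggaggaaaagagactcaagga
Rhox10 (chrX:38066225-38066474, plus strand): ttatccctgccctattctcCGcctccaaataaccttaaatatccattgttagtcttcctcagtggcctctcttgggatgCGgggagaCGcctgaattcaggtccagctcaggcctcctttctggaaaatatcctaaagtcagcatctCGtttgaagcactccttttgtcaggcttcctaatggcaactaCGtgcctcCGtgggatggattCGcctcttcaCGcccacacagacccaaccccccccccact
Rhox13 (chrX:38120590-38120839, plus strand): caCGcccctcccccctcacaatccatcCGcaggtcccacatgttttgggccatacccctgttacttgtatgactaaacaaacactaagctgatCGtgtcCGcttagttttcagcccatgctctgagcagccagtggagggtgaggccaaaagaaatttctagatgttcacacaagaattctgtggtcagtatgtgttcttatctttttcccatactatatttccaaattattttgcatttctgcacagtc

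The Rhox5 window held 4 CpG, the Rhox10 window 8 and the Rhox13 window 4, while the median over 27025 mouse gene promoters of that length was 6. Among 28 Rhox promoters in the table the count ran from 0, in Rhox1, to 10, in the pseudogene Rhox11-ps2. Their median was 4.5, below that of all genes, over a set that holds 7 copies each of Rhox2, Rhox3 and Rhox4. Promoters of Rhox6, Rhox8 and Rhox9 were not in the table. Motifs were searched on both strands. The Ets core CCGGAA matched in the windows of Rhox5, Rhox2a and the other Rhox2 copies in the table and in 12.2% of all promoters, and the androgen receptor core AGAACA matched in the windows of Rhox5, Rhox13, Rhox1 and Rhox4b, among others, and in 16.2% of all promoters. The GATA motif AGATAA matched in the Rhox13 window and in 10.3% of all promoters. None of the 6 motifs searched, which also included the Sp1 motif GGGCGG, the TATA box TATAAA and the E-box CACGTG, matched in the Rhox10 window. The Ets core contains a CpG. A match does not show that a factor binds there. For Rhox5 only the window shown was examined, and any other promoter of the gene was not.

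Copies of Rhox2 and Rhox4 had more similar promoters than different Rhox genes did, while most Rhox3 copies did not. Pairs of Rhox2 copies were 67.2% to 99.6% identical over the 250 bases and pairs of Rhox4 copies 50.8% to 96.4%, with 76% for Rhox4b against Rhox4e. Pairs of Rhox3 copies were 44.8% to 100% identical, with a median of 47.6%. Pairs among Rhox1, Rhox2a, Rhox4b, Rhox5, Rhox10 and Rhox13 were 40.4% to 48.4% identical. The sequences of the array's probes were not used here, so whether a probe also reads a related Rhox gene was not tested. This applies most to Rhox6 and Rhox9, which are close homologues known as Psx1 and Psx2.

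The arrays detected 16505 to 17211 probes in SSC and 15242 to 15613 probes in ESC. A probe counted as detected at a detection p under 0.01 against the array's background, which corresponded to an intensity of at least 114.2 to 117.9, depending on the array. Log2 levels correlated at 0.989 to 0.993 within a group, and at 0.784 to 0.795 between SSC and ESC arrays. The labels were checked on genes known in these cells. The spermatogonial factor Zbtb16 was higher in SSC by 3.05 ± 0.12 on the log2 scale (SE, n = 3 per group), the GDNF receptor Gfra1 by 2.55 ± 0.13 and the germ cell helicase Ddx4 by 1.72 ± 0.11. Pou5f1, a core pluripotency factor, was lower in SSC (−1.21 ± 0.12).

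Differences between the groups were common over the whole array. In limma, 74.4% of the 10024 genes measured were called at an adjusted p under 0.05 (Benjamini-Hochberg over all kept probes), 37.9% higher and 36.5% lower in SSC, and the SSC and ESC values did not overlap for 76.9%. All 4 measured members were called, 3 of them lower and 1 higher in SSC, which is to be read against these shares. Rhox6 and Rhox9 passed the filter only through the ESC arrays, so their direction was fixed by the filter, and no count over the measured members is offered as support.

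The beta subcluster genes Rhox5, Rhox6 and Rhox9 were lower in SSC than in ESC, and Rhox8 was near background in both. Rhox5, also known as Pem, is the founding member of the family and is known from embryonic stem cells, the placenta and Sertoli cells. Its intensity before normalization was 379, 419 and 454 on the SSC arrays, against 1626, 1544 and 1270 on the ESC arrays. All 6 values were well above the detection limit, and every SSC value lay below every ESC value. On the normalized log2 scale the level was 8.25 ± 0.20 in SSC and 10.43 ± 0.14 in ESC (SD, n = 3 each). The difference was −2.18 ± 0.14 (SE, limma adjusted p = 1.28e-08), or 4.54-fold, and 3.54% of all genes had a more negative one. Rhox5 was thus still detected on all 3 SSC arrays. The array reads 1 probe of the gene and does not tell which of its promoters was in use.

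Rhox9, also called Psx2 or Gpbox, is known from the placenta and from germ cells. Its intensity was 114, 113 and 111 on the SSC arrays, against 339, 289 and 289 on the ESC arrays. The SSC values lay at the detection limit and passed it on 1 of 3 arrays, with detection p-values of 0.00962, 0.047 and 0.0331, while all ESC arrays detected the probe. On the normalized log2 scale the level was 4.67 ± 0.10 in SSC and 7.91 ± 0.15 in ESC (SD, n = 3 each). The fitted difference was −3.25 ± 0.12 (SE, limma adjusted p = 1.12e-10), and 1.17% of all genes had a more negative one. With the dim SSC values raised to the lowest detected level, Rhox9 was at least 8.63-fold lower in SSC.

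Rhox6, or Psx1, is another homeobox gene of the placenta and germ cells. Its intensity was 114, 96.1 and 102 on the SSC arrays, against 156, 148 and 150 on the ESC arrays. The ESC values were modest but above the limit on every array. Among SSC arrays only replicate 1 passed it, and the groups did not overlap. The fitted difference was −1.79 ± 0.15 (SE, limma adjusted p = 2.65e-07), from log2 levels of 4.42 ± 0.31 in SSC and 6.21 ± 0.09 in ESC (SD, n = 3 each). As a bound, Rhox6 was at least 2.66-fold lower in SSC. A pattern of detection on 3 ESC arrays and at most 1 SSC array was shared by 549 genes, 5.48% of those measured.

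Rhox8, also called Tox, is known in the mouse from Sertoli cells. Its intensity was 104.7, 114.4 and 108.7 on the SSC arrays, against 118.4, 107.3 and 112.3 on the ESC arrays. The groups overlapped, and the probe was detected on 0 SSC arrays and on 1 ESC array. It therefore has only an upper bound in SSC, and a difference was not detectable. Fitted without a filter, where 40.3% of genes were called, the log2 difference was −0.25 ± 0.17 (SE, limma adjusted p = 0.397).

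**Figure D1:**
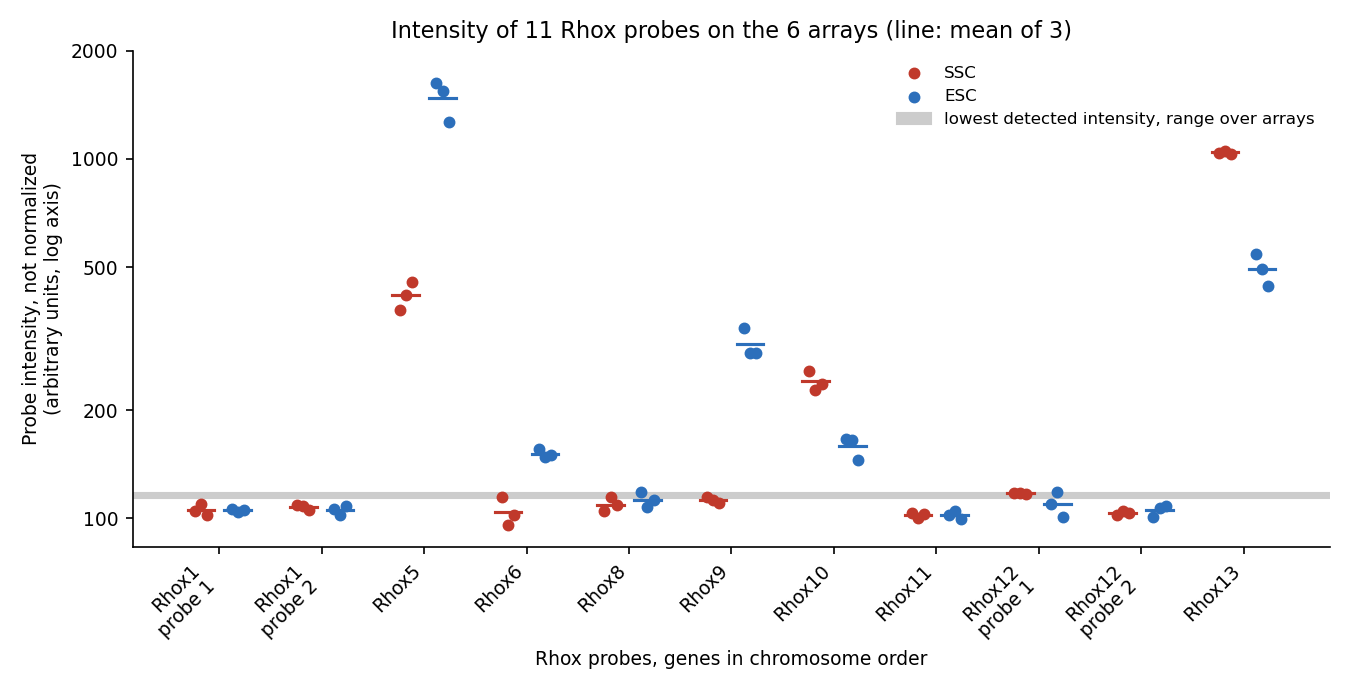
Unnormalized intensity (arbitrary units, log axis) of 11 Rhox probes on each of the 3 SSC arrays (red, left) and 3 ESC arrays (blue, right), with genes in chromosome order, lines for group means and a grey band for the lowest detected intensity over the arrays. Rhox5, Rhox6 and Rhox9 were lower and Rhox10 and Rhox13 higher in SSC without overlap, and the probes of Rhox1, Rhox8, Rhox11 and Rhox12 lay at or near the band.

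Rhox10, the gamma subcluster member, was higher in SSC than in ESC. It is expressed in spermatogonia, and mouse studies connect it with the establishment of spermatogonial stem cells. Its intensity was 258, 227 and 237 on the SSC arrays, against 166, 165 and 146 on the ESC arrays. All 6 arrays detected the probe, and each SSC value was above each ESC value. The normalized log2 level was 7.09 ± 0.23 in SSC and 6.37 ± 0.21 in ESC (SD, n = 3 each), a difference of 0.72 ± 0.15 (SE, limma adjusted p = 6.92e-04), or 1.65-fold. Of all genes measured, 24.2% had a more positive difference, so the shift of Rhox10 was moderate on this array. Its standard deviation within groups, pooled over both, was 0.22, against a median of 0.15 over all genes. ESC samples also gave a Rhox10 signal above the limit.

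The alpha subcluster was represented by Rhox1 alone. The intensity of one Rhox1 probe was 105, 110 and 103 on the SSC arrays, against 106, 104 and 106 on the ESC arrays. The other probe gave 109, 108 and 106 on the SSC arrays, against 106, 102 and 108 on the ESC arrays. Both probes were detected on 0 arrays of either group and their values overlapped. A Rhox1 level above background was thus not detectable in either cell type at this sensitivity. Fitted without a filter, the log2 differences were 0.01 ± 0.07 and 0.05 ± 0.09 (SE), with limma adjusted p-values of 0.935 and 0.78.

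Of the Rhox genes outside the members, Rhox11, Rhox12 and Rhox13 had named probes. Rhox13, a germ cell gene of the mouse testis and fetal ovary, had an intensity of 1040, 1055 and 1033 on the SSC arrays, against 542, 493 and 442 on the ESC arrays. The SSC values were close together and all above the ESC values. The log2 difference was 1.13 ± 0.12 (SE, limma adjusted p = 1.92e-06), or 2.19-fold. One Rhox12 probe passed the filter, with intensities of 118, 118 and 117 on the SSC arrays, against 109, 118 and 101 on the ESC arrays. These values straddled the detection limit and the groups overlapped, and the difference of 0.22 ± 0.17 was not called (limma adjusted p = 0.248). It was called under scaling on array medians (0.36) and without ESC replicate 2 (0.45). The other Rhox12 probe and the Rhox11 probe were detected on 0 arrays of either group.

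Taken in chromosome order, Rhox5 was lower in SSC and Rhox10 and Rhox13 were higher, where 36.5% of all genes were lower and 37.9% higher. Rhox6 and Rhox9 were lower too, in a direction that the filter had fixed. Rhox8 and Rhox11 were not measured and Rhox12 was not called, so no split by subcluster is claimed. The deposited processed table, whose fit was nearly that without background correction, gave the same directions. In it Rhox5 had intensities of 364, 372 and 446 on the SSC arrays, against 1573, 1528 and 1325 on the ESC arrays. Rhox9 had 114, 110 and 111 on the SSC arrays, against 358, 311 and 317 on the ESC arrays, and Rhox6 had 114, 95.4 and 103 on the SSC arrays, against 165, 156 and 162 on the ESC arrays. Rhox10 had 245, 202 and 225 on the SSC arrays, against 177, 176 and 157 on the ESC arrays. The groups did not overlap for any of these 4 genes, which is to be read against 76.9% of all genes in the reported fit. The share in the processed table was not counted, and Rhox6 and Rhox9 were kept only through the ESC arrays. In that table background was not subtracted, and the ratio of group means was 3.74-fold for Rhox5, 2.94-fold for Rhox9 and 1.55-fold for Rhox6, each lower in SSC, and 1.32-fold for Rhox10, higher in SSC.

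Background correction changed the size of these differences and not their direction. Without it the log2 difference of Rhox9 was −1.55, that of Rhox6 −0.63, that of Rhox10 0.40 and that of Rhox5 −1.91, and each was still called. A fold given as a bound, for Rhox6, Rhox9 or any other gene named here, is that of 1 probe and holds only under the correction used. Beside the bounds of other genes the fold of the same probe without background correction is given as uncorrected. Where detection on all 6 arrays was required, Rhox6 and Rhox9 were not measured and 2 members remained called, Rhox5 lower and Rhox10 higher in SSC. Over the 6 fits that each left out 1 array, Rhox5 ranged from −2.33 to −2.10, Rhox9 from −3.32 to −3.17, Rhox6 from −1.93 to −1.62 and Rhox10 from 0.60 to 0.84.

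**Figure D2:**
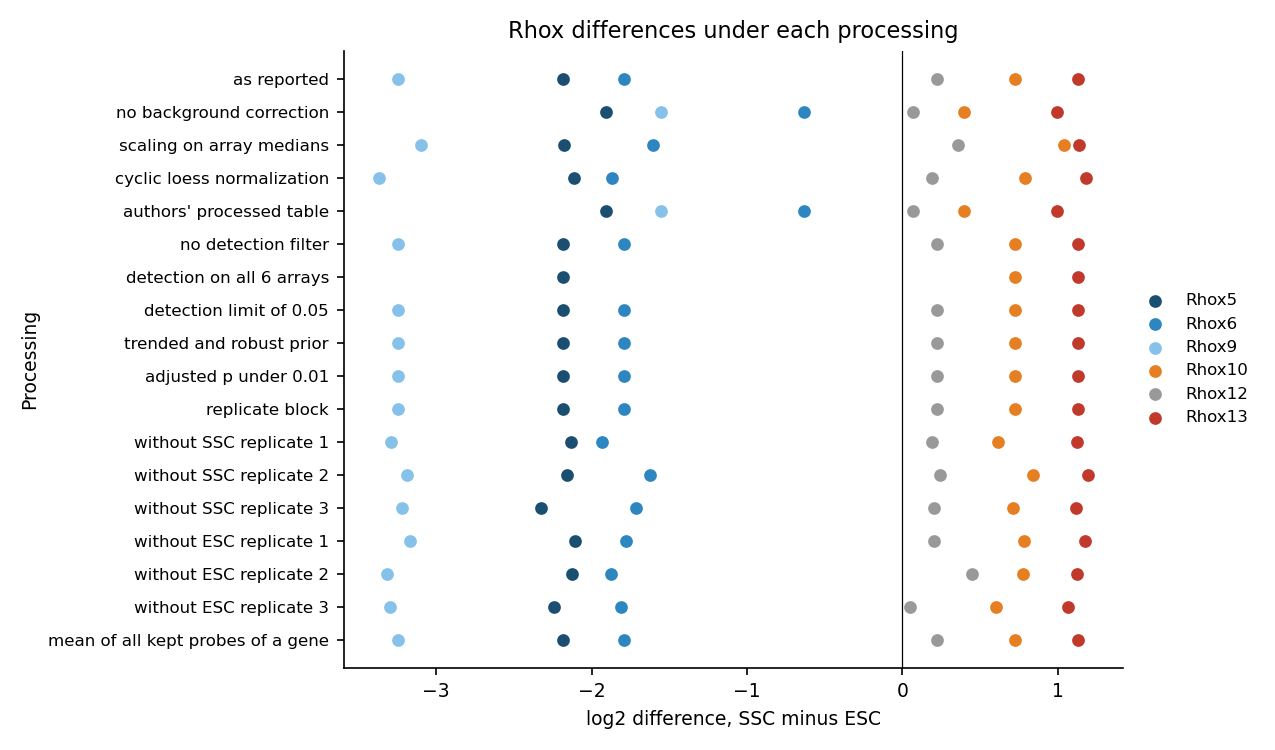
Log2 difference, SSC minus ESC, of the 6 measured Rhox genes (colours) under the processing reported and 17 alternatives (rows). Rhox5, Rhox6 and Rhox9 lay below 0 and Rhox10, Rhox12 and Rhox13 above it in every row that measured them, with Rhox6 nearest to 0 among the lower genes without background correction (−0.63).

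Genes beside the cluster did not share one direction. Of the 20 nearest protein-coding genes with a probe, 10 on either side of Rhox1 and Rhox13, 14 were measured, 6 were higher in SSC, 7 were lower and 1 was not called. Their median log2 difference was −0.22, against 0.0036 over all genes. Of all genes measured, 37.9% were higher and 36.5% lower in SSC, so a split in direction is not particular to the neighbours. Before Rhox1, Rnf113a1, a spliceosome-associated ring finger gene, was lower in SSC and detected on 1 of 3 SSC arrays (−1.44 ± 0.15). Ndufa1, a subunit of respiratory complex I, was higher by 0.33 ± 0.12, a call lost under scaling on array medians (0.22), at an adjusted p limit of 0.01, and without SSC replicate 1, ESC replicate 1 or ESC replicate 2 (0.28 to 0.31). After Rhox13, Zbtb33, which encodes the methyl-CpG binding protein Kaiso, was higher by 1.21 ± 0.13, and the membrane protein gene Tmem255a, detected on 0 ESC arrays, by at least 202-fold (limma adjusted p = 2.81e-11, 60.1-fold uncorrected). Its probes disagreed in size, with fitted log2 differences of 8.10 ± 0.27 and 3.23. Mcts1, a translation factor gene, was lower (−1.75 ± 0.13). Of 352 measured X-linked genes outside the Rhox family, 53.1% were higher and 28.7% lower in SSC, with a median of 0.41. That median was 0.22 without background correction and 0.084 with detection on all 6 arrays, and 0.023 over all 702 X-linked genes with a probe when no filter was set (26.6% higher, 14.4% lower).

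**Figure D3:**
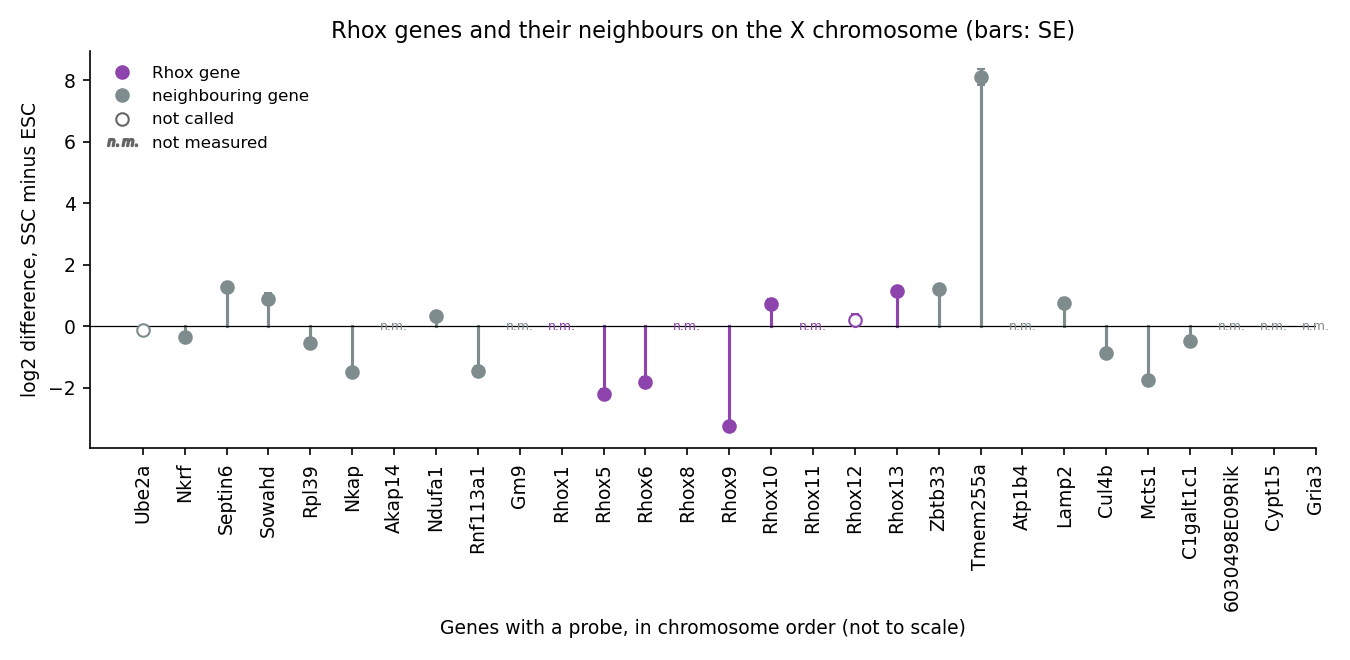
Log2 difference, SSC minus ESC, with its SE (bars), of the Rhox genes with a probe (purple) and their neighbours (grey) in chromosome order, not to scale, where open points were not called and n.m. marks genes not measured. Rhox5, Rhox6 and Rhox9 lay below 0, Rhox10 and Rhox13 above 0, and the neighbours on both sides went either way, up to 8.10 for Tmem255a.

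Genes of DNA methylation, the mark known to silence Rhox genes, were mostly lower in SSC. Of 8 measured genes on this list, 7 were lower and 1 was higher, with a median of −0.84, where 36.5% of all genes were lower and 37.9% higher. Tet1, which oxidises methylcytosine, differed by −5.18 ± 0.14, Dnmt3l, the catalytically inactive partner of the de novo methyltransferases, by −3.81 ± 0.12 (its other kept probe by −5.34). Mbd2, which binds methylated CpG, differed by −1.81 ± 0.13, and Zbtb33 was the exception. The methyltransferase genes, named after their values were seen, differed less. Dnmt3b differed by −0.60 ± 0.11 (its other kept probe by −0.41). Dnmt1 differed by −0.40 ± 0.13 (limma adjusted p = 0.0154, a call lost at a limit of 0.01). Dnmt3a was detected on 0 arrays of either group. Genes of H3K9 methylation and linker histones were split, with 4 of 8 higher and 3 lower in SSC and a median of 0.077. The heterochromatin protein gene Cbx5 (−1.13 ± 0.15), the linker histone gene H1f5 (−0.96 ± 0.14) and the co-repressor Trim28 (−0.89 ± 0.14) had the largest differences on this list, all lower. The linker histone gene H1f2, named after its value was seen, was higher by 0.89 ± 0.13, level in size with Trim28. The array does not measure methylation of the Rhox promoters, and any part of these enzymes in the Rhox differences was not tested.

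Factors known or proposed to act on the Rhox5 promoters in the mouse were measured for 7 genes, of which 4 were higher in SSC, 1 was lower and 2 were not called, with a median of 0.69. Of all genes 37.9% were higher and 36.5% lower, and 74.4% were called in either direction, so neither this count nor that of the Rhox5 targets stands as a result about the list. The GATA factor Gata6 was higher by 2.11 ± 0.16 and the Ets factor Ets1 by 1.13 ± 0.12, while Sp1 was lower (−1.10 ± 0.17). Of 8 genes reported to respond to Rhox5 in Sertoli cells, 4 were measured, 3 higher and 1 lower in SSC. The nuclear receptor gene Pparg was higher by at least 1.8-fold (limma adjusted p = 1.66e-07, 1.41-fold uncorrected) and the insulin gene Ins2 by at least 1.95-fold (limma adjusted p = 5.5e-07, 1.4-fold uncorrected), both detected on 0 ESC arrays. The lipid transfer gene Pltp, detected on 0 SSC arrays, was at least 1.97-fold lower (limma adjusted p = 8.38e-07, 1.31-fold uncorrected). The fitted median was 1.17.

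Rhox5 and Rhox8 are also Sertoli cell genes, so markers of the cells that testis samples could hold were set beside them. The arrays measure bulk RNA, in which fewer cells of a type and less RNA per cell cannot be told apart. Of 15 measured Sertoli cell genes, 12 were higher, 1 was lower and 2 were not called, and their summed normalized intensity was 6290 to 11700 on the SSC arrays and 1650 to 1820 on the ESC arrays. Of the 16 with a probe, 10 were detected on 0 ESC arrays and 1 on 0 SSC arrays. The junction gene Cldn11 was higher by 4.77 ± 0.13 on the log2 scale. Cst9 was higher by at least 57.7-fold (limma adjusted p = 1.14e-07, 19-fold uncorrected) and Amh, which encodes anti-Müllerian hormone, by at least 12.6-fold (limma adjusted p = 4.51e-10, 4.79-fold uncorrected), both detected on 0 ESC arrays. Cst9 stood at log2 levels of 10.03, 9.91 and 12.62 on the SSC arrays, so that SSC replicate 3 alone reached the highest sum, and without that array Cst9 was 50.4-fold higher, under its bound. Without Cst9 the sums were 5250 to 5710 in SSC and 1630 to 1800 in ESC. Dhh was lower (−0.37 ± 0.13), a call lost with no background correction (−0.12), in the deposited processed table (−0.12), with median scaling (−0.10), at an adjusted p limit of 0.01, and without SSC replicate 1 (−0.28) or ESC replicate 3 (−0.32). Rhox5 was lower in SSC while most of these genes were higher, and the part of such cells in the Rhox5 level was not tested.

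Of 11 measured genes of fibroblasts and peritubular myoid cells, 9 were higher and 1 was lower in SSC, with summed intensities of 8410 to 9300 in SSC and 3120 to 3310 in ESC. The matrix genes Dcn and Col6a1 were higher by at least 93.8-fold (limma adjusted p = 4.18e-13, 29.1-fold uncorrected) and at least 32.5-fold (limma adjusted p = 4.07e-12, 10.1-fold uncorrected), and smooth muscle myosin Myh11 by at least 9.21-fold (limma adjusted p = 8.03e-11, 3.55-fold uncorrected), each detected on 0 ESC arrays. The other kept probe of Dcn gave a log2 difference of 4.36. Other smooth muscle genes, named after their values were seen, did not share this direction. Acta2, which made up most of the ESC sum, was not called (−0.22 ± 0.12, limma adjusted p = 0.119, with its 4 probes reaching 1.36). Tagln, detected on 0 SSC arrays, was lower in SSC by at least 1.31-fold (limma adjusted p = 3.15e-04, 1.14-fold uncorrected), and Cnn1 was detected on 0 arrays of either group. Of the 8 Leydig cell genes with a probe, 4 were measured, 3 higher and 1 lower in SSC, where 37.9% of all genes were higher. The steroidogenic genes Cyp17a1 and Hsd17b3, detected on 0 ESC arrays, were higher by at least 5.52-fold (limma adjusted p = 7.52e-11, 2.47-fold uncorrected) and at least 3.97-fold (limma adjusted p = 1.24e-08, 2.02-fold uncorrected). Star, Hsd3b1 and Hsd3b6, named after their values were seen, were detected on 0 arrays of either group. Cyp11a1 was lower (−1.23 ± 0.18, detected on 2 of 3 SSC arrays), and the sums were 545 to 721 in SSC and 259 to 268 in ESC. Macrophage and leukocyte genes summed to 205 to 231 in SSC and 1000 to 1070 in ESC, over 5 measured of 11. Of these 5, 3 were higher in SSC, 1 was lower and 1 (Csf1r) was not called, where 37.9% of all genes were higher. Ptprc, Adgre1, Tyrobp and C1qa were detected on 0 arrays of either group. Like Csf1r, they were named after their values were seen. Laptm5 made up most of the ESC sum and was lower in SSC (−3.72 ± 0.12), while Fcer1g and Lyz2, detected on 0 ESC arrays, were higher by at least 1.37-fold (limma adjusted p = 1.45e-05, 1.24-fold uncorrected) and at least 1.14-fold (limma adjusted p = 5.52e-05, 1.25-fold uncorrected).

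The placental link of Rhox6 and Rhox9 was set against trophoblast and extraembryonic genes. Of 14 with a probe, 7 were measured, 4 were lower and 2 higher in SSC and 1 was not called, with a median of −2.72. Tfap2c (−5.28 ± 0.12, with another kept probe at −3.13), the placental growth regulator Phlda2 (−4.39 ± 0.12) and the keratin Krt8 (−2.79 ± 0.16) were lower. Sparc (2.64 ± 0.13), a matrix gene that made up most of the SSC sum, and Gata6 (2.11 ± 0.16), an endoderm factor, were higher. The trophoblast genes Cdx2, Elf5, Tpbpa and Hand1, like Sparc named after their values were seen, were detected on 0 arrays of either group. The summed level was 4570 to 4700 in SSC and 4940 to 5160 in ESC. Pluripotency genes were lower for 15 of 15 measured, with a fitted median of −3.78. Nanog and Esrrb, detected on 0 SSC arrays, were lower in SSC by at least 53.9-fold (limma adjusted p = 4.18e-13, 15.6-fold uncorrected) and at least 43.4-fold (limma adjusted p = 2.3e-12, 12.7-fold uncorrected), with the other kept probe of Nanog at a log2 difference of −4.51. Nr0b1 differed by a fitted −5.46 ± 0.16.

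Spermatogonial genes, the setting in which Rhox10 is known, were higher in SSC for 11 of 16 measured genes of the undifferentiated state and lower for 2, with a median of 1.44. The GDNF co-receptor gene Ret, detected on 0 ESC arrays, was higher by at least 12.9-fold (limma adjusted p = 1.12e-10, 4.33-fold uncorrected). Its other kept probe gave a log2 difference of 2.40. Taf4b and Neurog3 had fitted log2 differences of 3.63 ± 0.14 and 3.56 ± 0.17. The other genes of the list named here were chosen after their values were seen. Utf1 (−1.57 ± 0.12) and Lin28a (−0.80 ± 0.11, with another kept probe at −2.15) were lower. Etv5 (−0.25, with another kept probe at −2.66), Sall4 (−0.20) and Cdh1 (−0.15, with another at −1.33) were not called. Dmrt1, Eomes, Pax7 and Pdx1 were detected on 0 arrays of either group. The difference of Rhox10, at 0.72, lay below the list's median of 1.44. The count of each list is to be read against all genes, of which 37.9% were higher and 36.5% lower in SSC. Several of these lists hold genes that passed the filter only through 1 group, whose direction is then fixed, and the counts are descriptions.

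**Figure D4:**
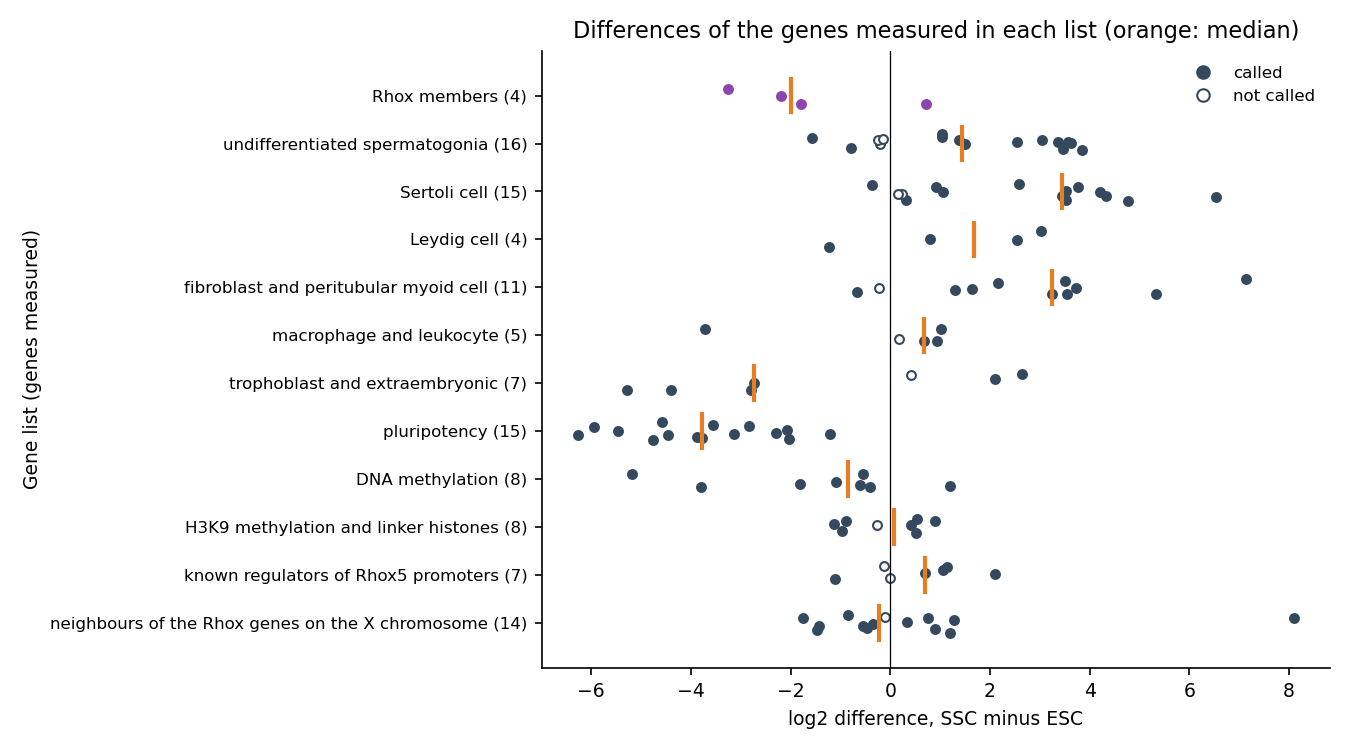
Log2 difference, SSC minus ESC, of each gene measured in the member list and in 11 other lists (rows, number measured in brackets), with filled points for called genes and an orange line for the median. The Rhox members split into 3 genes below 0 and Rhox10 above it, the 15 pluripotency genes all lay below 0, and most Sertoli, fibroblast and spermatogonial genes lay above 0.

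Among the 7684 other genes detected on all 6 arrays, the profiles nearest to that of Rhox5 after each gene's mean was subtracted were H2ac4, Clstn3 and Zfp473, at Euclidean distances of 0.18, 0.19 and 0.19 on the log2 scale over 6 arrays, against a median distance of 2.64. The nearest to Rhox10 were Sufu, Zfp36l1 and Ddrgk1, at 0.20, 0.21 and 0.22, against a median of 1.24. The log2 differences between SSC and ESC were −2.18 to −2.16 for the 3 genes nearest to Rhox5 and 0.64 to 0.74 for those nearest to Rhox10. The distance takes in this difference, so the ranking itself fixed that likeness, and shared regulation was not tested.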

How the data were processed

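The authors deposited unnormalized intensity, linear and with background included, for every probe, per the file headers. Beside each intensity the deposited file lists a detection p-value. The submitters' processing notes name GenomeStudio. A further deposited table holds processed intensity values with nearly the same quantiles on every array. Its processing steps are not stated. Its fit called 12440 probes, as did the fit without background correction. Rhox differences were nearly the same in both, such as −1.91 for Rhox5 and −1.55 for Rhox9. The table was used only as an alternative, and it is not a check apart from that fit.

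Normexp background correction (offset 16), fitted through those detection p-values, was followed by quantile normalization and log2 transformation (limma 3.58.1, R 4.3.3). Probes with a detection p under 0.01 on at least 3 of the 6 arrays were kept (17435 probes) and fitted with lmFit and eBayes without covariates. P-values were adjusted by Benjamini-Hochberg over all kept probes, and calls were made at an adjusted p under 0.05. The fit was tested on simulated data. Differences are SSC minus ESC. The number of arrays limits the precision.

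Of 45281 probes, 34885 carried a single symbol, 18 carried several, and no name was given for 10378. A gene is represented by its kept probe of highest mean. For a gene not detected on every array of its dim group, a bound sets each dim value at the higher of itself and the lowest detected level of that array, and differences of such genes elsewhere are fitted values. The members and the gene lists were chosen with earlier results of these data known. The genes named are all Rhox genes with a probe, up to 3 called genes of largest difference per list, exceptions on the DNA methylation and Sertoli cell lists, the nearest and most changed neighbours, the 3 nearest profiles to Rhox5 and Rhox10, and the label checks Nanog, Pou5f1, Zbtb16, Gfra1 and Ddx4. Further genes of the spermatogonial, Sertoli cell, Leydig cell, fibroblast, macrophage, trophoblast, DNA methylation and H3K9 methylation lists were named after their values were seen. The text says so beside them. Alternatives covered background correction, normalization, the starting table, the detection filter, the variance prior, the threshold, the probe that represents a gene, blocking on replicate number, and leaving out each array.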

Additional observations from a re-analysis of the deposited data

How the results depend on the processing

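The 4 measured members were called in the reported direction under every alternative that measured them, where 74.4% of all genes were called as reported. Rhox6 and Rhox9 were kept only through the ESC arrays, so alternatives with the same filter could not reverse their direction. Detection on all 6 arrays left 2 members, both called, and lowered the count over the fixed lists to 47 called genes, against 88 as reported. That filter keeps fewer genes, with 3 Sertoli cell genes called against 13, 2 fibroblast and peritubular myoid genes against 10, 1 Leydig cell gene against 4, 1 macrophage and leukocyte gene against 4, 8 spermatogonial genes against 13, 8 pluripotency genes against 15 and 0 reported Rhox5 targets against 4. Scaling on array medians moved the median over all genes to 0.16, and 58.2% of called genes were then higher in SSC, against 50.9% as reported. Of 43 genes outside the Rhox family that the naming rule gave for the lists, the neighbours and the label checks, 25 had a log2 difference over 1.5 times smaller without background correction and 2 (Dhh and Ndufa1) changed call under some alternative. Rhox12, not called as reported, was called under scaling on array medians and without ESC replicate 2. With each array left out, 4 members stayed called, and 12071 to 12581 probes, 10 to 13 neighbours and 85 to 88 list genes were called, against 12839, 13 and 88 as reported.

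With the replicate number as a block, 4 members and 12665 probes were called, and no Rhox call changed. Deviations of same-numbered samples correlated at −0.14, −0.07 and 0.03, which showed no pairing by number but could not exclude a weak one. Signal over background limits Rhox1, Rhox6, Rhox8, Rhox9 and Rhox12.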
